A study of Dugesia japonica with 12 samples.

Results

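Transcripts of the motile cilium and of intraflagellar transport were followed in whole planarians exposed to glyphosate. The members were chosen by name: a gene was taken when the protein it resembled most, in either the annotation or Swiss-Prot, was called an axoneme, cilium, flagellum, dynein, radial spoke, tektin, outer dense fiber, sperm-associated antigen, Bardet-Biedl or basal body protein, when its name held no tubulin and its Swiss-Prot match came from none of 4 ciliate genera, and when it reached 1 TPM (a transcript level scaled for length and to a fixed total per library) in at least 3 of the 12 libraries. This text pattern found 170 of the 27329 genes tested. Of these, 29 matched only through the species in the annotation, since Poecilia (19 genes), Lucilia (8 genes) and the sponge Sycon ciliatum (2 genes) contain the searched letters, and they were set aside, which left 141 members named by protein. Before the expression threshold, 156 genes were named in this way, and 3 genes with ciliate hits had been dropped. Of the 141 members, 39 were named for subunits of cytoplasmic dynein by the annotation or by Swiss-Prot, so the set is not made of ciliary genes alone. They include the most abundant member, a light chain that Swiss-Prot names for the flagellar outer arm and the annotation for cytoplasmic dynein.

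A motile cilium is built around the axoneme, a ring of doublet microtubules in which axonemal dyneins are the motors, and in which radial spokes, the central pair and the dynein regulatory complex coordinate the beat. Intraflagellar transport carries components along the axoneme, outward on kinesin-2 and back on cytoplasmic dynein 2, and the BBSome is an adaptor for its cargo. Planarians glide on the cilia of the ventral epidermis and drive fluid through their protonephridia with ciliary tufts. Cytoplasmic dynein 1 moves cargo in all cells, and light chains of the LC8 type are shared between cytoplasmic dynein, outer arm dynein and many other complexes.

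The worms were Dugesia japonica of the clonal, asexually kept strain Dj-NH. Polyadenylated RNA of whole worms was sequenced in 12 libraries, 3 from untreated control worms and 3 each from worms kept for 1, 3 or 5 days in 64 mg per L glyphosate, a herbicide, which the labels give as a fraction of the median lethal concentration. No day of sampling is stated for the control worms, so time in the laboratory and exposure cannot be told apart. Nothing says whether replicates were grown apart or how many worms each holds, so the tests reflect how these particular libraries vary, and that variation may be technical. In whole worms, fewer ciliated cells and less RNA per cell cannot be told apart. TPM values keep no sequencing depth, so depth is unknown and no counting interval is given.

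Libraries differed in ways the groups do not explain. Control replicate 1, day 1 replicate 2 and day 3 replicate 2 had the highest median over all genes tested, 2.75 to 3.01 TPM, against 1.81 to 2.33 TPM in the other 9. The median over the members was 5.67, 4.78 and 5.76 TPM in those 3 libraries and 2.80 to 4.47 TPM in the others. The 2 most abundant transcripts held between 36% and 55.5% of a library's total.

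The members covered a wide range of levels. Their mean over the 12 libraries ran from 0.507 to 994 TPM with a median of 3.80 TPM, against 2.17 TPM over all genes tested. Of the 141, 100 reached 1 TPM in all 12 libraries, 62 had a mean of at least 5 TPM and 42 a mean under 2 TPM. Assembled lengths ran from 204 to 4254 bases, with 23 members under 300 bases, and the heavy chains are therefore represented by pieces. Swiss-Prot hits existed for 131 members and fell on 86 different protein names, and for 25 members the annotation hit was a flatworm protein. Of the members, 10 shared an assembly component with another member, in 4 components, and their reads may be divided between them.

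Few cilia transcripts passed the test at any exposure time, and 0 rose. Most members had values below control by sign, but this was a shift of the whole set that was not tested and that at day 3 was lost without control replicate 1. A gene was called when the limma test on log2(TPM + 1) had an adjusted p under 0.05 over all 27329 genes. At day 1, 0 of 141 members were called, where 0.132% of all genes were (0.0842% higher and 0.0476% lower). At an unadjusted p under 0.05, 1 member was higher and 3 were lower at day 1, beside 4.03 and 4.8% of all genes. At that threshold 1 member was higher and 24 were lower at day 3, beside 4.91 and 9.58% of all genes, and 3 were higher and 28 lower at day 5, beside 5.1 and 11.4%. At day 3, 2 members fell and 0 rose, beside 1.62% of all genes called, 1.19% lower and 0.428% higher. At day 5, 4 members fell and 0 rose, beside 2.91% of all genes called, 2.23% lower and 0.681% higher. These shares lie near the background, so the number of calls at the adjusted threshold is not a result about the members. Without the 3 libraries of highest median, 0 members were called at day 3 and 2 at day 5, and leaving out single libraries, control ones among them, gave 0 to 2 calls at day 3 and 0 to 7 at day 5.

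The median log2 fold change of the members was -0.17 at day 1, -0.21 at day 3 and -0.25 at day 5, where the median over all genes tested was -0.08, -0.06 and -0.09. By sign, 107, 104 and 108 of the 141 members were lower than in control at the 3 times, which is 75.9, 73.8 and 76.6%, beside 57.9, 55.3 and 58.2% of all genes. Among genes with an annotation hit, the same medians were -0.13, -0.06 and -0.12, and 67.8, 56.4 and 61.9% were lower by sign. Members that lay wholly below the control libraries numbered 4 at day 1, 22 at day 3 and 31 at day 5. That is 2.84, 15.6 and 22%, against 7.71, 10.5 and 15.6% of all genes. The shares were 9.65, 11.9 and 20.6% among genes with an annotation hit, so the day 5 share of the members lay near theirs. The member median rested on control replicate 1, most of all at day 3. Without that library the values were -0.03, 0.00 (70 of 141 lower) and -0.12, with all genes at 0.02, 0.04 and 0.02. Set against all genes, the members stood at -0.05, -0.04 and -0.14 without it, and at -0.09, -0.16 and -0.15 as first computed. Without the 2 most abundant transcripts in the total, the median of all genes moved by 0.12 at day 3 and at day 5, and the member medians were -0.10 and -0.11. Relative to all genes, the members then stood at -0.16 and -0.14, close to -0.16 and -0.15 as first computed.

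**Figure D1:**
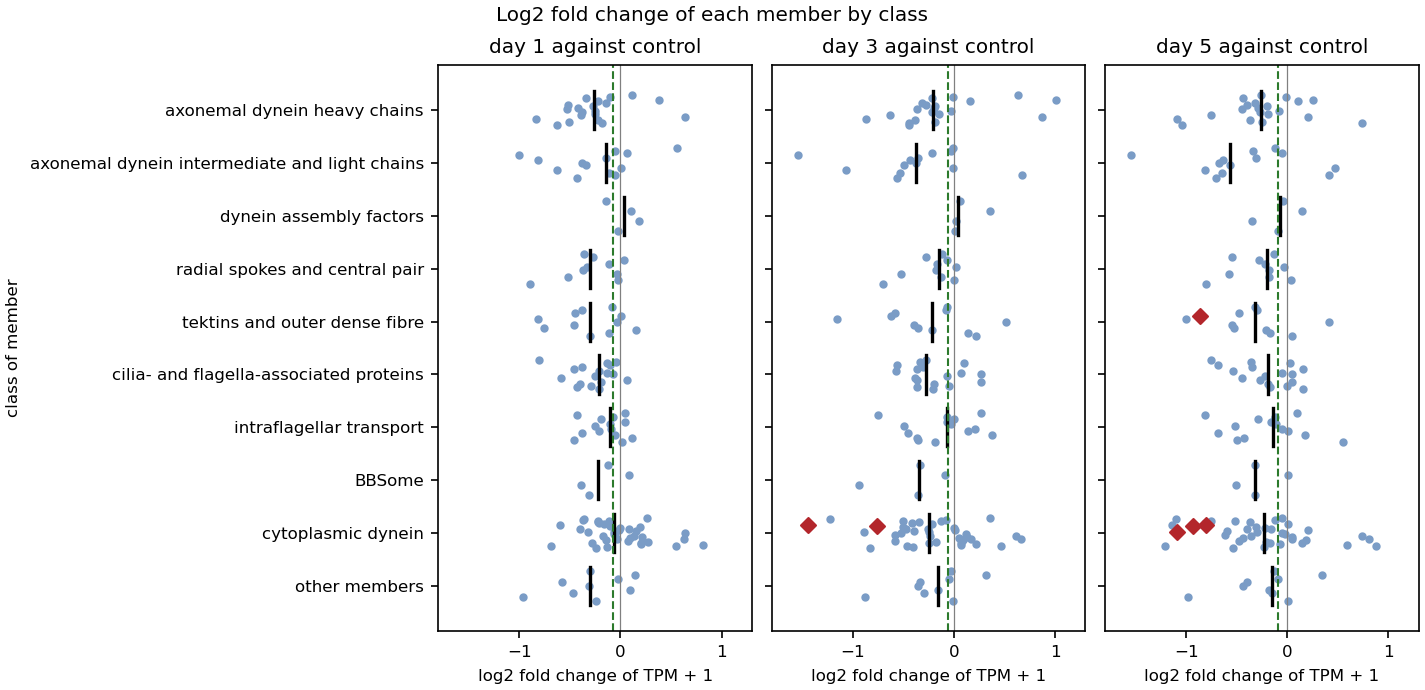
Log2 fold change of TPM + 1 against control for each of the 141 members at the 3 exposure times, by class, with the regulatory complex and docking members drawn among the other members. Points are members, red diamonds are members with an adjusted p under 0.05, black bars are class medians and the dashed green line is the median of all genes tested. The diamonds lie in the cytoplasmic dynein class at day 3 and in that class and among the tektins and outer dense fiber proteins at day 5.

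The members that fell were mostly LC8-type dynein light chains. LC8 is a small protein that binds as a dimer to many partners, and in dynein it sits at the base of the motor on the intermediate chains. The LC8-type group was delimited after the values had been seen, from 17 members named as dynein light chain 1 or 2, LC8-type or the flagellar outer arm light chain, and is described without a test. They are called copies by name only, since no sequences were compared. Where such small genes are alike, their reads may be shared by the counting, so the level of a single copy is uncertain. Transcript TRINITY_DN28535_c0_g1, whose annotation hit is the LC8-type light chain of the liver fluke Clonorchis sinensis, stood at 450, 507 and 377 TPM in the control libraries. It stood at 424, 442 and 372 TPM at day 1, at 277, 228 and 280 TPM at day 3 and at 219, 256 and 218 TPM at day 5. All 6 libraries of day 3 and day 5 were below all 6 of control and day 1. The log2 fold change was -0.76 at day 3 (SE 0.18, adjusted p = 0.0466) and -0.93 at day 5 (SE 0.18, adjusted p = 0.0112), and -0.10 at day 1 (adjusted p = 0.910). The F test over the 4 groups gave an adjusted p of 0.0161. The day 5 call stood in 19 of 22 alternative analyses, and the day 3 call in 2 of 22, with adjusted p-values of up to 0.196.

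A second copy, TRINITY_DN27095_c0_g1, followed the same order at a lower level. It was at 38.6, 44.7 and 32.2 TPM in control, 40.1, 38.7 and 29.6 TPM at day 1, 23.9, 19 and 23.4 TPM at day 3 and 18.9, 22.1 and 23.6 TPM at day 5. Again the last 2 times lay below all control and day 1 libraries. The log2 fold change at day 5 was -0.80 (SE 0.20, adjusted p = 0.0400), and at day 3 it was -0.77 (adjusted p = 0.0637). The F test called this member too, with an adjusted p of 0.0473. The day 5 call stood in 10 of 22 alternatives, with adjusted p-values of up to 0.165.

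Another copy, TRINITY_DN32953_c2_g3, is an assembled piece of 238 bases that shares its component with members c2_g1 and c2_g2. It was at 67.5, 58.2 and 53.4 TPM in control, 53.5, 50.9 and 39.1 TPM at day 1, 18.3, 44.9 and 38.5 TPM at day 3 and 23.0, 25.4 and 34.7 TPM at day 5. Its log2 fold change at day 5 was -1.09 (SE 0.28, adjusted p = 0.0455). Both the day 3 and the day 5 libraries were below every control library, while day 1 overlapped with control and with day 3. The call stood in 8 of 22 alternatives, with adjusted p-values of up to 0.179.

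The fourth, TRINITY_DN27667_c0_g1, a piece of 266 bases at a low level, was at 5.25, 5.12 and 2.37 TPM in control and at 1.20, 1.39 and 0.23 TPM at day 3. It had been at 1.84, 2.31 and 2.94 TPM at day 1, and it was at 1.22, 1.51 and 1.17 TPM at day 5. The groups of day 3 and day 5 did not overlap with control. The log2 fold change on the scale of TPM + 1, which understates changes of low genes, was -1.44 at day 3 (SE 0.32, adjusted p = 0.0328) and -1.14 at day 5 (adjusted p = 0.0688). The day 3 call stood in 12 of 21 alternatives, with adjusted p-values of up to 0.149.

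**Figure D2:**
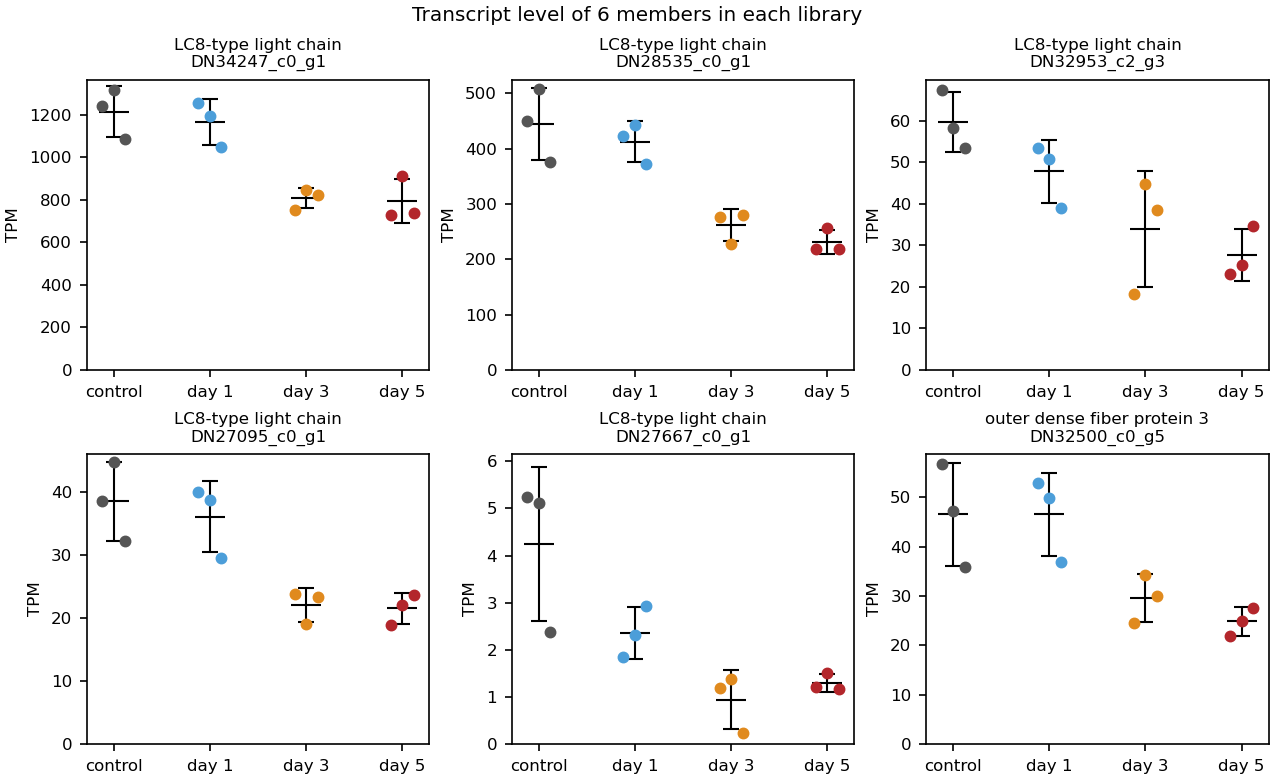
TPM of 6 members in each of the 12 libraries, for the 5 members with a call against control and the most abundant member, TRINITY_DN34247_c0_g1, by group. Points are libraries, and bars are the mean and 1 SD of 3 libraries. In all 6 panels the day 3 and day 5 libraries lie below the control libraries.

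The 3 most abundant LC8-type copies besides the called one did not pass the test. The most abundant member of all, TRINITY_DN34247_c0_g1, has the flagellar outer arm light chain of the green alga Chlamydomonas as its Swiss-Prot hit and a sea urchin light chain as its annotation hit. It was at 1242, 1315 and 1083 TPM in control, 1254, 1193 and 1046 TPM at day 1, 753, 844 and 824 TPM at day 3 and 729, 912 and 739 TPM at day 5. Its groups of day 3 and day 5 lay below those of control and day 1, with a log2 fold change at day 5 of -0.61 (SE 0.18, adjusted p = 0.0845). TRINITY_DN37819_c2_g2 averaged 684 ± 70.6 TPM in control, 717 ± 52.1 TPM at day 1, 455 ± 34 TPM at day 3 and 492 ± 60.7 TPM at day 5 (SD, n = 3 each), with an adjusted p of 0.172 at day 5. TRINITY_DN32916_c1_g1 averaged 331 ± 67.4 TPM in control, 346 ± 16 TPM at day 1, 238 ± 34.6 TPM at day 3 and 295 ± 42.7 TPM at day 5. Its day 3 libraries lay below control (log2 fold change -0.47, adjusted p = 0.274), and its day 5 libraries overlapped with control. Of the 17 LC8-type members, 7 lay below all control libraries at day 3 and 7 at day 5, or 41.2%, beside 10.5 and 15.6% of all genes. Nothing is drawn from this share, since the group was delimited with the values in view.

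Summed over the 17 copies, LC8-type transcripts made up 2864, 3173 and 2498 TPM in the control libraries and 2974, 2837 and 2583 TPM at day 1. They made up 1853, 1825 and 1961 TPM at day 3 and 1749, 2170 and 1816 TPM at day 5. The sums of the last 2 times were below every library of control and day 1. With the 2 most abundant transcripts left out of the total, the sums were 4474 to 5818 TPM in control, 3554 to 4403 TPM at day 3 and 3381 to 4572 TPM at day 5, so day 5 then overlapped with control replicate 1 and day 3 did not. The median log2 fold change of the 17 was -0.47 at day 3 and -0.48 at day 5, and it ranged from -0.27 to -0.38 under the 3 other scalings.

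The other light chain families of cytoplasmic dynein held fewer transcripts. Roadblock-type chains, which bind the intermediate chain and were delimited in the same way, summed to 115 ± 21.3 TPM in control, 108 ± 11.8 TPM at day 1, 79.2 ± 7.04 TPM at day 3 and 91.8 ± 10.3 TPM at day 5 over 6 members, and 0 of them were called. Of the 6, 4 lay below all control libraries at day 3, beside 10.5% of all genes. At day 5, 1 lay below and 1 above, beside 15.6 and 7.7%. Nothing is drawn from these counts either. TRINITY_DN882_c0_g1, singled out after its values were seen, went from 23.9 ± 8.65 TPM in control to 12.4 ± 1.59 TPM at day 3 (adjusted p = 0.146). Tctex-type chains, a further light chain family, summed to 91.0 ± 19.6 TPM in control and 86.0 ± 1.69 TPM at day 5 over 6 members. By sign, 4 of the 6 were lower at day 5. The most abundant, TRINITY_DN25025_c0_g1 (mean 45.1 TPM), lay below all control libraries at days 3 and 5. Its log2 fold changes were -0.34 and -0.37 (adjusted p = 0.385 and 0.299). TRINITY_DN35127_c2_g1 had a higher value at day 5 (log2 fold change 0.81). The remaining 11 subunits, among them the heavy, intermediate and light intermediate chains, summed to 69.8 ± 15.4 TPM in control and 72.8 ± 12.5 TPM at day 5. The longest piece of the heavy chain of dynein 1, TRINITY_DN37075_c0_g1, was at 35.5, 35.4 and 26.1 TPM in control and 43.9, 33.7 and 32.6 TPM at day 5, and these libraries overlapped (adjusted p = 0.797). The difference between the light chain families and the heavy chain was not tested.

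**Figure D3:**
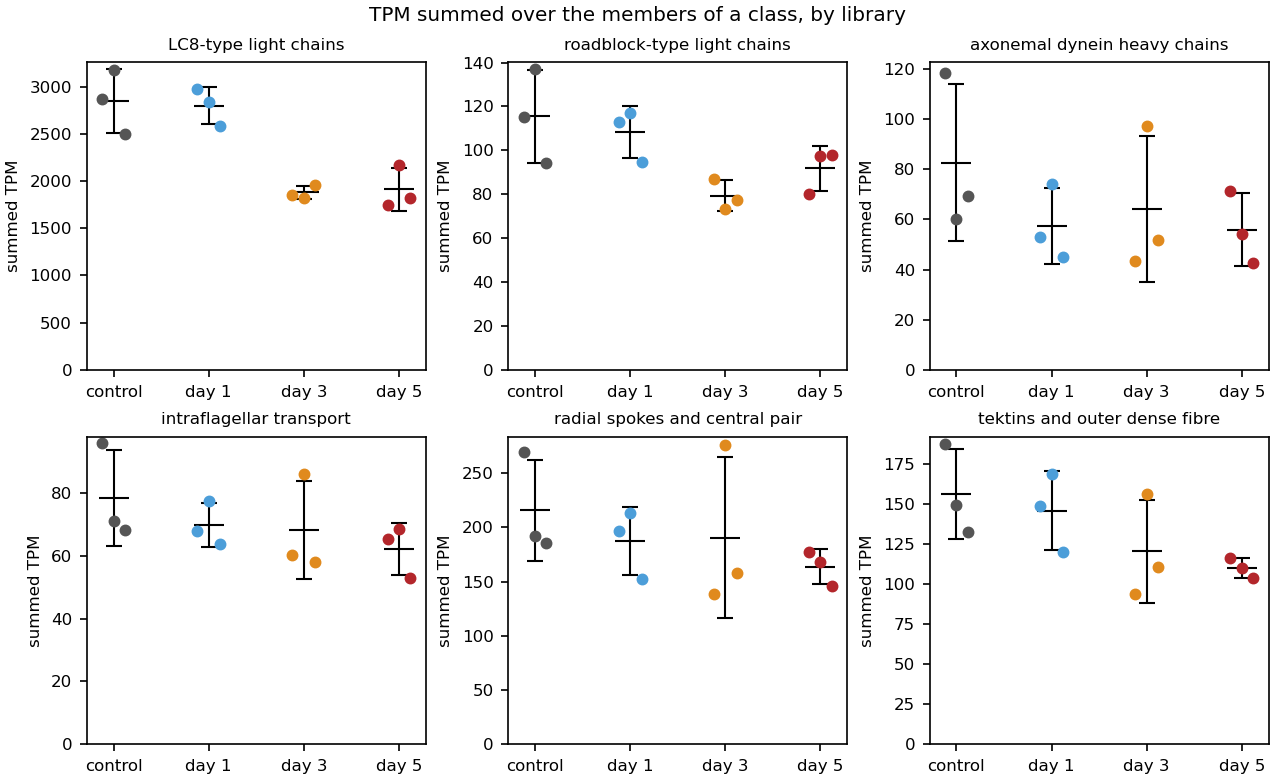
TPM summed over the members of 6 classes in each library, by group, with the mean and 1 SD of 3 libraries. LC8-type sums at day 3 and day 5 lie below all control and day 1 sums. Roadblock-type sums do so at day 3 only, and those of tektins and outer dense fiber proteins at day 5 only. Sums of the axonemal heavy chains and intraflagellar transport overlap with control, and those of radial spokes overlap at day 3 and lie below control at day 5.

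Axonemal dynein heavy chains, the force-producing subunits of the outer and inner arms, were represented by 20 members, of which 0 were called at any time. Their median log2 fold change was -0.27, -0.20 and -0.26 at days 1, 3 and 5, and 17, 16 and 16 members were lower. Summed, they made up 60.2 to 118 TPM in control and 42.5 to 71.2 TPM at day 5, and the groups overlapped. The highest control value was that of replicate 1, and without that library the class medians were -0.08, 0.01 and -0.02. A piece of 4029 bases with a hit on heavy chain 5, a motor of the outer arm, TRINITY_DN37444_c0_g1, stood at 20.5, 7.81 and 13.6 TPM in control, 6.57, 7.89 and 6.20 TPM at day 1, 4.80, 9.98 and 6.19 TPM at day 3 and 6.47, 5.67 and 4.77 TPM at day 5. Every day 5 library lay below control, but the test did not pass (log2 fold change -1.09, SE 0.30, adjusted p = 0.0669). The most abundant heavy chain, TRINITY_DN35633_c0_g2, whose hit is a ciliary beta chain and whose annotation hit is a protein of the planarian Schmidtea mediterranea, was at 25.8, 12.99 and 13.3 TPM in control and 10.4, 10.0 and 7.90 TPM at day 5 (adjusted p = 0.187).

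The class of axonemal dynein intermediate and light chains had 13 members, of which 0 were called. It took every such dynein chain not named as cytoplasmic, Tctex-type or roadblock-type, so some of its members may not be axonemal. Among them is TRINITY_DN1328_c0_g1, named as an LC8-type light chain and also counted with the 17 LC8-type copies. The median of the 13 members was -0.14 at day 1, -0.37 at day 3 and -0.56 at day 5. Their sums were 78.5 to 117 TPM in control and 62.1 to 64.6 TPM at day 5, and these groups did not overlap. The most abundant, TRINITY_DN34077_c0_g2, named for light chain 1 of the outer arm, was at 30.3, 23.1 and 18.6 TPM in control and 15.98, 15.9 and 14.98 TPM at day 5 (adjusted p = 0.218). The member with the smallest F-test p of the class, TRINITY_DN37880_c0_g1, whose annotation hit is a dynein light chain of the tapeworm Hymenolepis microstoma, averaged 3.79 ± 1.22 TPM in control and 1.38 ± 1.03 TPM at day 3 (adjusted p = 0.136). Without control replicate 1 the class median at day 5 was -0.34.

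The class named as dynein assembly factors had 4 members with medians of 0.04, 0.04 and -0.07, and 0 were called. TRINITY_DN26710_c0_g1, an assembly factor with WDR repeats, was at 11.9 ± 4.10 TPM in control, 10.4 ± 1.73 TPM at day 1, 12.6 ± 5.49 TPM at day 3 and 11.2 ± 1.83 TPM at day 5. TRINITY_DN32366_c0_g2, assembly factor 1, had 2.71 ± 0.501 TPM in control and 1.92 ± 0.355 TPM at day 5 (adjusted p = 0.650). Single members stood for the regulatory complex, which links neighbouring doublets, and for the outer arm docking complex, which anchors the arm. Regulatory complex protein 1 (TRINITY_DN34822_c1_g4) was at 4.19, 1.20 and 2.37 TPM in control and 2.29, 1.58 and 0.97 TPM at day 5 (adjusted p = 0.623), and the docking member TRINITY_DN37916_c5_g7 was at 1.34 ± 0.580 TPM in control and 1.18 ± 0.911 TPM at day 5 (adjusted p = 0.893).

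Radial spokes and the central pair, which carry signals between the centre of the axoneme and the arms, had 10 members and 0 calls. Their medians were -0.30, -0.15 and -0.20, and 0.05 at day 3 and 0.02 at day 5 without control replicate 1. The most abundant, TRINITY_DN30521_c0_g2, a radial spoke head protein 9, was at 71.5, 75.6 and 49.9 TPM in control and 53.1, 58.2 and 48.5 TPM at day 5, with overlapping groups. TRINITY_DN34944_c2_g3, radial spoke head 14, was at 25.1, 20.4 and 16.9 TPM in control, 10.4, 18.98 and 13.9 TPM at day 3 and 13.8, 13.1 and 13.7 TPM at day 5 (adjusted p = 0.209 at day 5). Its day 5 libraries lay below control and were close to one another.

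Among tektins, filament proteins of the doublet wall, and outer dense fiber proteins, 1 of 11 members was called lower, at day 5, beside 2.23% of all genes. TRINITY_DN32500_c0_g5, named for outer dense fiber protein 3, a protein first described in sperm tails, was at 56.6, 47.3 and 35.8 TPM in control and 52.9, 49.7 and 36.9 TPM at day 1. It was at 24.6, 34.3 and 30.1 TPM at day 3 and 21.9, 24.97 and 27.6 TPM at day 5. The libraries of day 3 and day 5 were all below those of control and day 1. It fell by 0.86 on the log2 scale at day 5 (SE 0.22, adjusted p = 0.0424), while the day 3 value of -0.62 did not pass (adjusted p = 0.181). The call stood in 10 of 22 alternatives, with adjusted p-values of up to 0.176. Its more abundant relative TRINITY_DN35333_c0_g3, with the same protein name, did not pass at any time, at 61.7 ± 11.2 TPM in control, 68.6 ± 9.58 TPM at day 1, 52.9 ± 7.93 TPM at day 3 and 52.7 ± 2.71 TPM at day 5. Tektin-2 (TRINITY_DN33053_c4_g1) was at 21.5, 5.64 and 15.6 TPM in control and 7.07, 6.07 and 4.50 TPM at day 5 (adjusted p = 0.197), the second control library being close to the exposed ones.

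Cilia- and flagella-associated proteins, a mixed class of inner microtubule and arm-associated proteins, had 17 members and 0 calls, with medians of -0.21, -0.28 and -0.19. The member with the smallest F-test p was CFAP20 (TRINITY_DN31098_c0_g1), an inner junction protein of the doublet. It was at 41.3, 38.4 and 30.7 TPM in control, 36.1, 38.6 and 28.2 TPM at day 1, 20.8, 32.0 and 21.9 TPM at day 3 and 20.98, 22.8 and 23.6 TPM at day 5. Day 5 lay below control and day 1 in every library, and the test did not pass (log2 fold change -0.68, SE 0.21, adjusted p = 0.0951). A further member named for CFAP20, TRINITY_DN34476_c3_g4 (mean 11.6 TPM), overlapped with control at day 5 (log2 fold change -0.27, adjusted p = 0.605). The class median at day 5 was 0.08 without control replicate 1.

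The class named for intraflagellar transport, which leaves out its motors, was close to the background. The 14 members had medians of -0.10, -0.07 and -0.14 at days 1, 3 and 5, and 0 were called. Under the 3 other scalings the day 3 median lay between 0.01 and 0.08, so its direction is not settled. IFT43 (TRINITY_DN28601_c0_g1), a small subunit of the retrograde complex A, was at 7.45, 6.71 and 6.38 TPM in control, 4.51, 6.40 and 3.87 TPM at day 1, 3.23, 3.77 and 4.02 TPM at day 3 and 4.48, 4.10 and 2.14 TPM at day 5. Its day 3 and day 5 libraries were below control, with an adjusted p of 0.170 and 0.0986. IFT25 (TRINITY_DN36363_c0_g1), the most abundant and a subunit of the anterograde complex B, averaged 11.8 ± 1.74 TPM in control, 12.7 ± 0.430 TPM at day 1, 8.91 ± 1.42 TPM at day 3 and 8.59 ± 2.23 TPM at day 5. IFT27 (TRINITY_DN33022_c0_g6), its binding partner in complex B, averaged 9.51 ± 1.43 TPM in control and 6.37 ± 1.16 TPM at day 5 (adjusted p = 0.211), and was singled out after its values were seen. The subunits named for the retrograde motor, cytoplasmic dynein 2, were counted with cytoplasmic dynein and were looked up after the values were seen. At day 5 the log2 fold change was -0.40 for the heavy chain TRINITY_DN32606_c0_g1 (adjusted p = 0.55), which overlapped with control. It was -0.52 for the light intermediate chain TRINITY_DN23368_c0_g1 (adjusted p = 0.409), which lay below all control libraries.

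The BBSome was represented by 4 members, 3 of them pieces of BBS5 that share a component, with 0 calls. TRINITY_DN35750_c4_g2 was at 15.4 ± 7.14 TPM in control and 14.7 ± 2.85 TPM at day 5, and TRINITY_DN35750_c4_g3 at 10.7 ± 4.03 TPM in control, 4.98 ± 1.45 TPM at day 3 and 7.06 ± 2.35 TPM at day 5. The ciliary rootlet, a striated fibre that anchors the basal body, was the subject of a further member with a low level at all 3 times. TRINITY_DN37985_c2_g1 was at 45.0, 19.7 and 27.7 TPM in control, 15.2, 16.1 and 12.4 TPM at day 1, 13.7, 18.9 and 13.9 TPM at day 3 and 15.3, 11.6 and 16.4 TPM at day 5. All 9 exposed libraries were below the lowest control library, but the control libraries themselves differed widely. The adjusted p-values were 0.254, 0.113 and 0.0584 at days 1, 3 and 5.

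**Figure D4:**
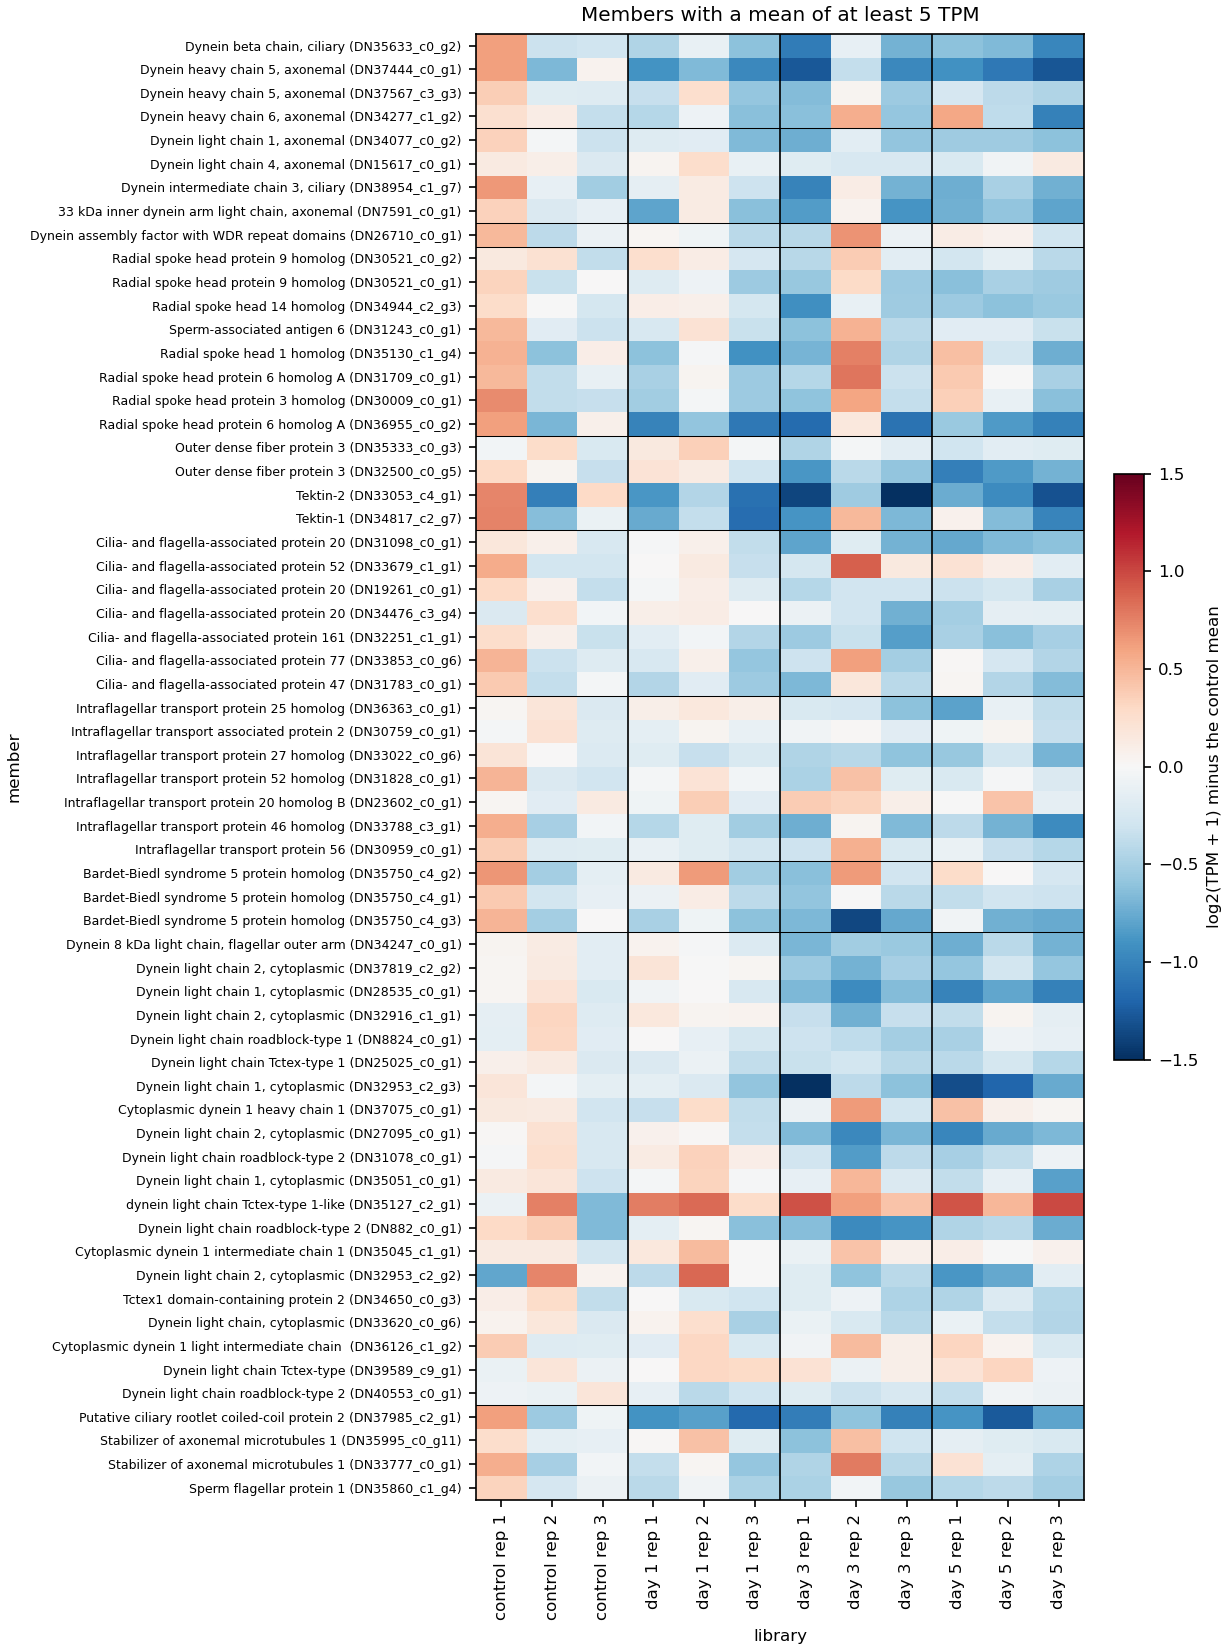
Log2(TPM + 1) minus the control mean for the 62 members with a mean of at least 5 TPM (rows, grouped by class from axonemal heavy chains at the top to cytoplasmic dynein and others at the bottom) in the 12 libraries (columns). Control replicate 1 and day 3 replicate 2 are high for many axonemal members, while the first 3 rows of the cytoplasmic dynein block, all LC8-type, are low in all day 3 and day 5 libraries.

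By sign, 34, 37 and 33 of the 141 members were higher than control at days 1, 3 and 5, and 0 passed the test. Of the 27329 genes tested, 11504, 12204 and 11390 were higher. Groups that lay wholly above control numbered 1, 3 and 3 at the 3 times, beside 5.65, 5.66 and 7.7% of all genes. The largest day 5 value among members with a mean of at least 5 TPM was that of the Tctex-type light chain TRINITY_DN35127_c2_g1, at 12.97, 24.0 and 8.40 TPM in control and 27.6, 19.9 and 28.5 TPM at day 5 (log2 fold change 0.81, adjusted p = 0.177). A second piece of the cytoplasmic dynein heavy chain, TRINITY_DN34414_c3_g1, averaged 2.07 ± 0.303 TPM in control and 4.29 ± 1.74 TPM at day 5 (adjusted p = 0.283). These and the other higher members were chosen after their values were seen.

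The exposure times were also compared with each other. For day 3 against day 1, 0 of 141 members were called, beside 0.179% of all genes, and for day 5 against day 1 0 were called, beside 0.49%. For day 5 against day 3, 0 members and 0% of all genes were called. The smallest adjusted p of a member was 0.214, 0.0553 and 1.00 in these comparisons. At an unadjusted p under 0.05, 12 members were lower and 0 higher at day 3 against day 1, beside 5.95 and 2.71% of all genes. At day 5 against day 1, 11 were lower and 0 higher, beside 6.85 and 3.37%. At day 5 against day 3, 0 were lower and 2 higher, beside 1.72 and 1.36%. The F test over the 4 groups called 2 members, beside 1.84% of all genes, and both are LC8-type.

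Values also varied with transcript length. Members of at least 300 and under 1000 bases (43 genes) had median log2 fold changes of -0.09, -0.34 and -0.36 at days 1, 3 and 5, and 38 and 39 of them were lower at days 3 and 5. Members of 2000 bases or more (35 genes) had medians of -0.25, -0.15 and -0.19. The same order held for all genes tested, with -0.05, -0.10 and -0.11 for those of at least 300 and under 1000 bases and -0.16, 0.01 and -0.05 for those of at least 2000 bases. The longest LC8-type copy, TRINITY_DN35051_c0_g1, has 789 bases. The part of length in the results was not tested.

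**Figure D5:**
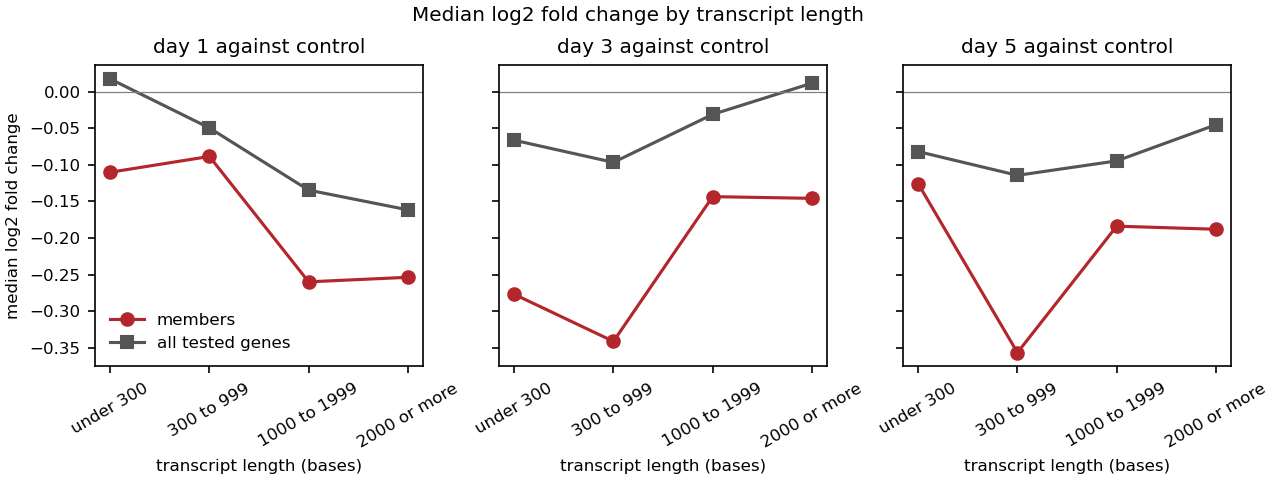
Median log2 fold change against control by transcript length, in 4 length classes, for the members (red circles) and for all genes tested (grey squares) at the 3 exposure times. Members of at least 300 and under 1000 bases have the lowest median at days 3 and 5, and the medians of all genes lie above those of the members in every class.

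Other genes of the ciliary pathway, found by name outside the members (kinesin-2, transport proteins named by other domains, dynactin, transition zone proteins and ciliary GTPases, centrins, polycystins, ciliary transcription factors and further axonemal proteins), numbered 72. Their median was -0.19, -0.06 and -0.14 at days 1, 3 and 5, and 0.06 at day 3 without the 2 most abundant transcripts in the total. At each time 1 of the 72 was called, and it was lower each time, beside 0.0476, 1.19 and 2.23% of all genes. This was the centrin TRINITY_DN39574_c2_g8, at 9.65, 6.63 and 7.65 TPM in control, 2.12, 2.66 and 1.42 TPM at day 1, 1.10, 2.89 and 1.37 TPM at day 3 and 0.47, 0.67 and 0.59 TPM at day 5. It fell by 1.56, 1.73 and 2.5 on the log2 scale (adjusted p = 0.0436, 0.00477 and 0.000136). Centrins are calcium-binding proteins of basal bodies, and the Swiss-Prot hit of this one is a plant calcium-binding protein. Kinesin-2 motor subunits, of which 4 were tested, summed to 7.61 to 13.8 TPM in control and 6.99 to 10.6 TPM at day 5.

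Lists of planarian cell markers, found by protein name, are given beside the members. The epidermal names were glycine amidinotransferase, intermediate filament protein and rootletin, the last named for the ciliary rootlet. The protonephridial names were cubilin, carbonic anhydrase and nephrin. Whether the listed genes mark these cells here was not tested. The lists had day 5 medians of -0.39 for epidermis (12 genes), -0.22 for muscle (21), -0.62 for neoblasts, the dividing stem cells (25), -0.03 for neurons (29) and 0.08 for protonephridia (12). Among them, 5 neoblast genes and 1 protonephridial gene were called lower at day 5, and 0 of the others were called, beside 2.23% of all genes called lower. Summed, epidermal markers made up 301 to 551 TPM in control and 205 to 306 TPM at day 5. Genes with ciliate Swiss-Prot hits, 72 in all, had medians of -0.58, -0.91 and -1.30. At day 5, 32 of them were called lower and 3 higher, beside 2.23 and 0.681% of all genes. The organism of a transcript was not determined, and the part of any of these in the member values was not tested. Among the 25 members with a flatworm annotation hit the median was -0.30 at day 5, against -0.12 over all genes with flatworm hits, and 1 of the 25, the first LC8-type transcript above, was called, beside 2.91% of all genes.

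At the expression threshold, 10 members reached 1 TPM in exactly 3 libraries, and 7 further named genes reached it in exactly 2 and were left out. Just inside stood TRINITY_DN25141_c1_g1 (mean 0.993 TPM), TRINITY_DN2163_c0_g1 (0.875 TPM) and TRINITY_DN36477_c1_g3 (0.869 TPM), a dynein 1 heavy chain piece, an axonemal intermediate chain piece and CFAP44. Just outside stood TRINITY_DN220_c0_g1 (0.717 TPM), TRINITY_DN12311_c0_g1 (0.686 TPM) and TRINITY_DN41558_c0_g1 (0.647 TPM), all pieces of axonemal heavy chains. The intermediate chain piece was listed at 0 in all 6 libraries of days 3 and 5, and at 2.62 and 5.80 TPM in 2 control libraries and 0 in the other. At day 1 it was at 0, 2.08 and 0 TPM. It passed the threshold only through the 3 libraries where it was found, so nothing is drawn from its zeros.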

How the data were processed

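Per the submitters' processing notes, the authors used cutadapt, FastQC, Salmon and edgeR, whose versions and settings are not stated there. The authors deposited a table of values taken as TPM, since libraries sum to 978610 to 986584 and Salmon reports TPM; its header does not name the unit, and the deposited values hold no counts. Testing was limited to the 27329 of 30535 genes that reach 1 TPM in 3 or more of the 12 libraries. The log2(TPM + 1) values of the 4 groups entered a single limma fit (version 3.58.1, R 4.3.3) that models the trend of variance with intensity. P-values were adjusted by the Benjamini-Hochberg method across every tested gene, at a threshold of 0.05, and the procedure was tested on simulated data. Members, classes and lists were chosen with earlier results of these data known. The 29 species-name matches were set aside by name, but after names and values had been seen together. The named genes are the called members, the most abundant member and the smallest F-test p of each class, and the members beside the threshold. Genes chosen otherwise are Tektin-2, the further CFAP20 member, the roadblock-type, Tctex-type and abundant LC8-type copies, and TRINITY_DN1328_c0_g1. So are the dynein 2 subunits, the long heavy chain piece of dynein 1, IFT27 and the higher members. No sequences or genome were used here, and 0 further per-sample columns exist. No 2 libraries held identical values (0 pairs).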

Additional observations from a re-analysis of the deposited data

How the results depend on the processing

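Of the 25 alternatives, the number of members called at day 1 stayed at 0 in each, and the member medians ranged from -0.30 to -0.03 at day 1, -0.39 to 0.00 at day 3 and -0.35 to -0.11 at day 5; leaving out control replicate 1 gave the values nearest 0 at day 1 and day 3. The spread of the member median between libraries of a group, 0.323, is larger than the medians themselves, so it cannot show that they are stable. Against 2 calls at day 3, 1 was called with a pseudocount of 0.1, no low-value filter, quantile normalization, median-ratio scaling, the 2 most abundant transcripts left out, the replicate block and flatworm hits alone, and 0 without an intensity trend, with only the 6 libraries compared, without members named by either hit as cytoplasmic dynein (the flagellar outer arm light chain among them) and without the 3 libraries of highest median together; leaving out 1 library gave 0 to 2. Against 4 at day 5, the filter of 5 TPM gave 7, no trend, the 2 most abundant transcripts left out, flatworm hits alone and no cytoplasmic dynein gave 1 each, and only the 6 libraries and leaving out the 3 libraries gave 2 each; leaving out 1 library gave 0 to 7, with 0 without day 5 replicate 1 or 3, 1 without day 5 replicate 2 or day 1 replicate 1, 2 without control replicate 1 or day 1 replicate 2, and 7 without day 3 replicate 2. Against 2 in the F test, the filter of 5 TPM and quantile normalization gave 4, the replicate block and flatworm hits alone 1, and no trend, the 2 most abundant transcripts left out, no cytoplasmic dynein and leaving out the 3 libraries 0; leaving out 1 library gave 0 to 3. The F test was not run with only 6 libraries. The cause of these moves was not tested. The replicate numbers did not pair the libraries: of 18 same-numbered pairs, 1 correlated above 0.1 (r from -0.15 to 0.15), and 3 of 12 libraries correlated best with their own number. Of the 25, 3 were added after seeing the data: the genes matched through a species name kept in, no cytoplasmic dynein, and the 3 libraries left out.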
